A study of Homo sapiens with 16 samples.

Results

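The 5 DNA-binding subunits of NF-kB (RELB, RELA, REL, NFKB1 and NFKB2) and 5 IkB proteins that bind them (NFKBIA, NFKBIB, NFKBIE, NFKBIZ and BCL3) were followed in L1236, a human cell line established from Hodgkin lymphoma. Members were all probe sets whose only gene symbol was one of these 10 names. That gave 10 of 33297 gene-level probe sets, 1 for each of 10 of the 18395 genes with a probe set of their own, and 141 of 257430 exon-level probe sets. All cells carried a retrovirus with a doxycycline-inducible short hairpin RNA against RELB. Some of the cells were left uninduced and others were given doxycycline, and the series asked how expression changes when RELB is depleted. RNA of each condition was hybridised to 4 Affymetrix whole-transcript arrays, and the values of each of the 8 arrays were deposited both by gene and by exon-level probe set. Replicates 1 and 2 carry the code B_1 in their titles and replicates 3 and 4 the code B_4, with last numbers 1 and 4 within each code. What the code and the last number mean is not stated. The labels are also silent on whether arrays with the same label came from different cultures, and p-values here measure the spread between arrays only, part or all of which may be technical.

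NF-kB factors are dimers of 5 related proteins. RELA, REL and the p50 product of NFKB1 carry the classical pathway, and RELB with the p52 product of NFKB2 carries the alternative pathway. In resting cells IkB proteins hold the classical dimers in the cytoplasm until the IKK kinases mark them for destruction, and the unprocessed NFKB2 precursor p100 acts in the same way on RELB. The IkB proteins differ in place: NFKBIA, NFKBIB and NFKBIE act mainly in the cytoplasm, while NFKBIZ and BCL3 act in the nucleus with p50 or p52. Hodgkin lymphoma cells are known for NF-kB that stays active, in several cases with damaged NFKBIA or NFKBIE genes, and most of these genes are themselves NF-kB targets in many cells.

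Among the members the nuclear IkB genes showed the widest differences between the labels. NFKBIZ was 13.3-fold higher and BCL3 1.83-fold higher in the arrays labelled induced, NFKB2 was 1.47-fold lower, RELA was 1.18-fold higher and NFKBIA 1.21-fold lower. Of the 10 members, 3 rose (NFKBIZ, BCL3 and RELA), 2 fell (NFKB2 and NFKBIA) and 5 did not pass limma at an adjusted p under 0.05. Over all 13796 tested genes 55.5% passed, 27.1% higher and 28.4% lower, so the members' count is near the background. The arrays of one label did not overlap those of the other for 4 of 10 members, against 49.8% of all tested genes. The median absolute log2 difference was 0.22 over the members and 0.30 over all tested genes.

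**Figure D1:**
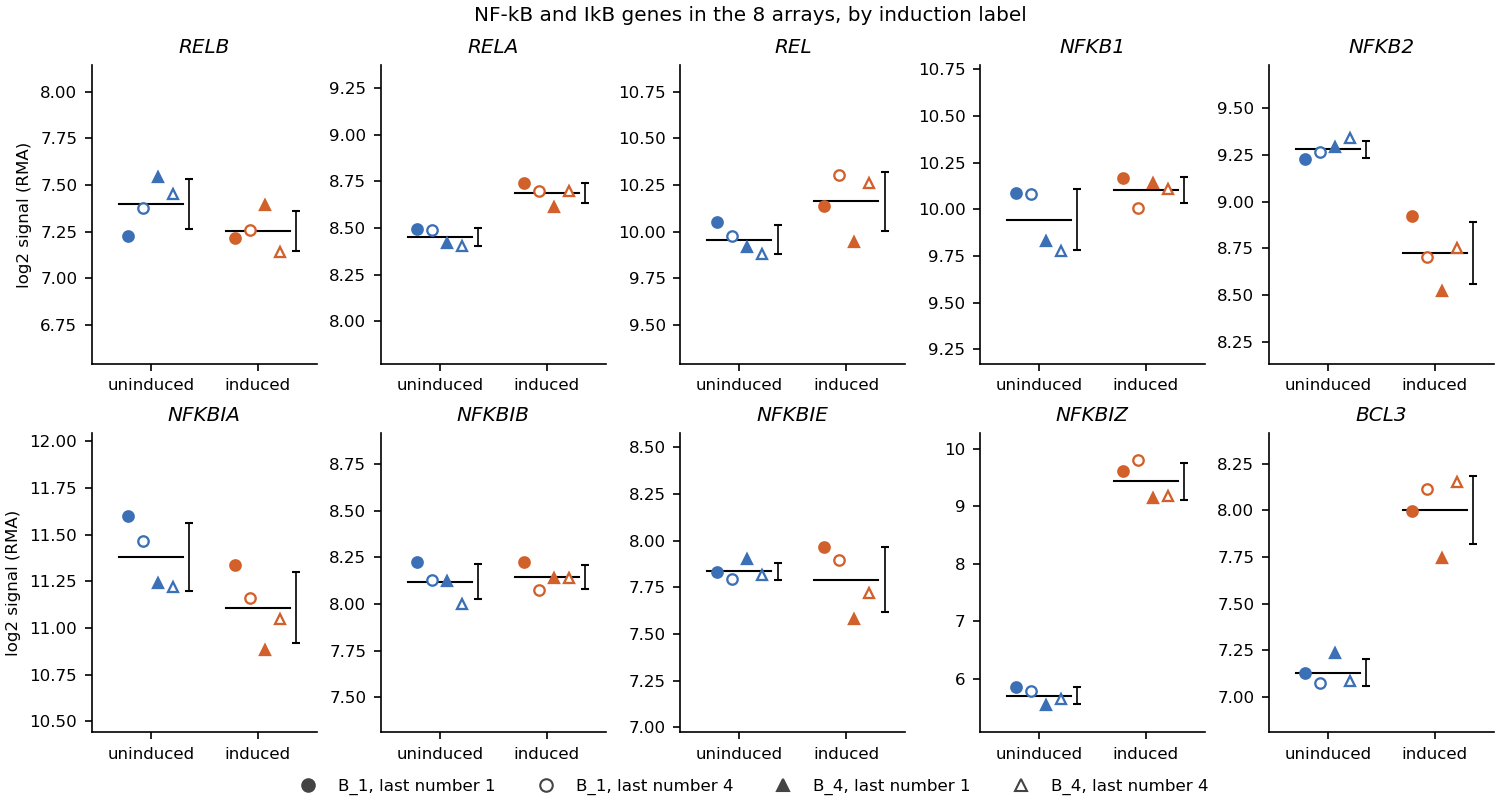
Log2 signal of the 10 genes in each of the 8 arrays, by induction label; symbol shape gives the B code, fill the last number, the horizontal bar the mean and the error bar the SD of 4 arrays. All panels span the same log2 range except that of NFKBIZ, where the arrays labelled uninduced lie between 5.53 and 5.86 and those labelled induced between 9.15 and 9.80.

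RELB, the target of the hairpin, had log2 signals of 7.23, 7.38, 7.54 and 7.45 in the uninduced arrays of replicates 1 to 4. The arrays labelled induced gave 7.22, 7.26, 7.39 and 7.14. The groups overlapped, and the array with the highest signal of those labelled induced lay above 2 of the 4 labelled uninduced. The difference was -0.15 ± 0.09 (SE), with a limma adjusted p of 0.212 and a 95% interval from -0.35 to 0.06 on the log2 scale. In the 4 pairs of one code and number the induced array was the lower each time (-0.01, -0.12, -0.15 and -0.31), but the numbers were not found to pair the arrays. RELB mRNA thus does not settle the labels, and every direction given here rests on the labels alone. RELB protein was not measured, and in bulk RNA fewer cells of a kind and less RNA per cell cannot be told apart.

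Some values of the whole series stand beside all results. Array medians lay between 5.79 and 5.88 (log2), and precision is limited by having 4 arrays per label. TNFRSF8 (CD30), the receptor that defines Hodgkin cells, lay between 6.65 and 7.09 in the arrays labelled uninduced and between 11.47 and 11.68 in those labelled induced. PAX5, the B-lineage factor, and IRF4, a factor of activated B cells, were at 8.98 or more in all 8 arrays, and both rose (2.76 and 0.75). Of 10 Hodgkin cell markers 4 rose (these 3 and TRAF1) and 5 fell (CD274, -5.79 with an induced mean under the filter level, GATA3, -5.19, FSCN1, -1.84, CCL22, -1.75, and FUT4, -0.47). Of 7 tested B-cell markers 4 rose (CD79A by 5.31, CD22 by 4.11, PAX5 and CR2) and 1 fell (BLK, -0.79). The uninduced mean of CR2, 3.15, lay under the filter level, and without CR2 3 of 6 rose and 1 fell. MS4A1, another B-cell marker, was not tested, with means of 4.49 (uninduced) and 4.52 (induced) under that level. The log2 of the summed signal of the B-cell markers ran from 9.69 to 9.88 in the arrays labelled uninduced and from 12.60 to 12.97 in those labelled induced, and its part in the results was not tested. CD3D, CD3E and CD3G, which define T cells, lay under the filter level of 4.78 on average, as did LYZ and MPO of myeloid cells and DCN and LUM of fibroblasts. In the other T-cell genes 1 of 6 tested rose (ZAP70, 2.09), of 4 tested myeloid markers 1 fell, and of 5 tested markers of fibroblasts and epithelium 1 rose and 1 fell.

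The subunits moved by small amounts. NFKB2, which encodes p100 and p52, the partner of RELB, had signals of 9.23, 9.27, 9.29 and 9.34 in the uninduced arrays of replicates 1 to 4. In the arrays labelled induced they were 8.93, 8.70, 8.52 and 8.75. Every array labelled induced lay below every array labelled uninduced. NFKB2 fell by 0.56 on the log2 scale (SE 0.10, limma adjusted p = 0.000602), which is a change of -32.0% with a 95% interval from -41.5% to -20.9%. The fall passed with each array left out in turn, with differences from -0.65 to -0.47. NFKB2 was the subunit with the widest difference.

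RELA, the main activating subunit of the classical pathway, gave 8.49, 8.49, 8.42 and 8.40 in the uninduced arrays. Its induced arrays gave 8.74, 8.70, 8.61 and 8.70. The groups did not overlap, and the spread within each label was narrow (SD 0.05 in both). RELA rose by 0.24 ± 0.08 (SE, limma adjusted p = 0.0233). The call was lost when the uninduced array of replicate 2, 3 or 4 was left out (adjusted p 0.0573, 0.0671 and 0.0737). It was also lost without the induced array of replicate 1 (0.0547) or 4 (0.0594). The difference stayed above 0 in each of these fits, from 0.21 to 0.24.

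REL, the subunit that is amplified in many Hodgkin tumours, had 10.05, 9.98, 9.92 and 9.88 in the uninduced arrays and 10.14, 10.30, 9.95 and 10.26 in the induced arrays. Its difference of 0.20 ± 0.09 did not pass (limma adjusted p = 0.0792), and the induced array of replicate 3 lay among the uninduced ones. With that array left out the difference was 0.26 and passed narrowly (adjusted p = 0.0494). NFKB1, the source of p50, had 10.09, 10.08, 9.83 and 9.77 in the uninduced arrays and 10.17, 10.01, 10.14 and 10.11 in the induced arrays. The 2 uninduced arrays of code B_4 were its lowest, and the other 6 arrays lay between 10.01 and 10.17. The difference of 0.16 ± 0.09 did not pass (adjusted p = 0.165).

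Among the cytoplasmic IkB genes only NFKBIA passed. NFKBIA encodes IkB-alpha, the inhibitor that is degraded and remade in each round of classical signalling. Its uninduced arrays gave 11.60, 11.47, 11.24 and 11.22, and its induced arrays 11.34, 11.16, 10.89 and 11.05. The groups overlapped. Arrays of code B_1 were higher than those of B_4 under either label, and in each of the 4 pairs of one code and number the induced array was the lower. NFKBIA fell by 0.27 on the log2 scale (SE 0.09, limma adjusted p = 0.0193). Leaving out the uninduced array of replicate 1 or 4 ended the call (adjusted p 0.0640 and 0.0544), and so did leaving out the induced array of replicate 2 or 3 (0.0603 and 0.0746). The same happened with no terms for B code and last number in the fit (adjusted p = 0.0707).

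NFKBIB, which encodes IkB-beta, had 8.23, 8.13, 8.12 and 8 in the uninduced arrays and 8.23, 8.07, 8.14 and 8.14 in the induced arrays. Its difference of 0.02 ± 0.08 had a 95% interval from -0.15 to 0.20, and quantile normalisation turned its sign (-0.03). NFKBIE, which encodes IkB-epsilon, had 7.83, 7.79, 7.90 and 7.82 in the uninduced arrays and 7.97, 7.89, 7.58 and 7.72 in the induced arrays. The induced arrays of code B_1 were the highest of the 8 but for 1 uninduced array, and those of B_4 were the lowest. The difference over all arrays was -0.05 ± 0.10 (interval -0.26 to 0.17), so neither gene showed a difference beyond the spread between arrays.

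The nuclear IkB genes among the members rose, while NFKBID, a nuclear IkB outside the members, did not pass (0.06). NFKBIZ encodes IkB-zeta, which binds p50 in the nucleus and switches on a late set of target genes. Its signal was 5.86, 5.79, 5.53 and 5.64 in the uninduced arrays of replicates 1 to 4 and 9.61, 9.80, 9.15 and 9.18 in the induced arrays. The lowest induced array lay more than 3 log2 units above the highest uninduced one. The difference was 3.73 ± 0.09 (SE, limma adjusted p = 1.5e-10), which ranked 227 of 13796 tested genes by size. With each array left out in turn it ran from 3.66 to 3.78.

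BCL3, which encodes a nuclear protein that joins p50 or p52 dimers and lets them activate genes, had 7.13, 7.07, 7.24 and 7.09 in the uninduced arrays. The induced arrays gave 7.998, 8.12, 7.74 and 8.15. The groups did not overlap, and the induced array of replicate 3 was the lowest of its label. BCL3 rose by 0.87 ± 0.10 (SE, limma adjusted p = 3.2e-05), and by 0.81 to 0.97 with each array left out in turn. RELB lies on chromosome 19 as the eighth tested gene after BCL3. Of the 10 nearest tested genes around BCL3, 0 rose and 2 fell, and of the 10 around RELB, 2 rose and 1 fell.

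The promoters of the 4 members with the clearest differences or the best known feedback are shown for the kB motif, the sequence that NF-kB dimers bind. RefSeq (GRCh38.p14) listed 14 promoters for 8 of the 10 members, each with 250 bases before and 50 after a start, and the 250 bases before the start are printed. Capitals mark matches to GGGNNNNNCC on either strand that lie wholly within the printed bases, with overlapping matches joined.
NFKBIZ, chr3:101827740-101827989, plus strand: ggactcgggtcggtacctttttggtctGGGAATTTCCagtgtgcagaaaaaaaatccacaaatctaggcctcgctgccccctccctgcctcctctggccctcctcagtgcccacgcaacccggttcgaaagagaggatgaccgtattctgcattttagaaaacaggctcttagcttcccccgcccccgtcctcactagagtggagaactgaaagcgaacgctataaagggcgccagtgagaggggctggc
BCL3, chr19:44748458-44748707, plus strand: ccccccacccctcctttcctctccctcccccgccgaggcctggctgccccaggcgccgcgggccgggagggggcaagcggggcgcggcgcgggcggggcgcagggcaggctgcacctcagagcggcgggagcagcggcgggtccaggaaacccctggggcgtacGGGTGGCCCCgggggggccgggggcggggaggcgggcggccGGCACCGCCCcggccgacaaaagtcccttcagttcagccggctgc
NFKB2, chr10:102394328-102394577, plus strand: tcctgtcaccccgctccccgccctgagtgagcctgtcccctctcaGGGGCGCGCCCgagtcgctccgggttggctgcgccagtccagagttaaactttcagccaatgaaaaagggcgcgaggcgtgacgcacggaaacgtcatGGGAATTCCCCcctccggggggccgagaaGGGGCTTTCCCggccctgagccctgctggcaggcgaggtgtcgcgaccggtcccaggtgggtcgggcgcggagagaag
NFKBIA, chr14:35404750-35404999, minus strand: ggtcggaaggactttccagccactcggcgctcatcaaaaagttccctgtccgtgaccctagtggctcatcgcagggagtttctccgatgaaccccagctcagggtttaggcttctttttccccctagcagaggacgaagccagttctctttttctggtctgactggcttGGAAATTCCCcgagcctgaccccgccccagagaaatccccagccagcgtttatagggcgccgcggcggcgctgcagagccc
NFKBIZ and NFKB2 have other listed promoters that are not printed. At least 1 match to GGGNNNNNCC lay in 14 of 14 member promoters, over the whole window and both strands, and in 58.7% of all 35116 promoters of that length. The stricter word GGGAATTTCC, a form of the looser motif, was taken from the NFKBIZ promoter printed above, so NFKBIZ was certain to hold it. It lay in 5 of 14 member promoters and in 51 of all promoters (0.145%), and these shares are therefore no independent comparison. The members holding it were NFKB1, NFKBIA, NFKBIB, NFKBIZ and REL. In NFKBIZ the match began 223 bases before the start, on the sense strand, and in NFKBIA 81 bases before it, on the antisense strand. These 5 genes include 1 that rose, 1 that fell and 3 that did not pass. The promoters of BCL3 and NFKB2 held the looser motif, and the matches are descriptions of sequence and not of binding.

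The B code was examined next, since it splits each label into 2 arrays. No member passed for the B code by limma (0 of 10), and 0 of 13796 genes did (0%), although 1911 genes, 2 members among them, had an unadjusted p under 0.05. Within the arrays labelled uninduced the B code was called for 395 genes (2.86%), and within those labelled induced for 9 (0.0652%). No member was among them. Within the arrays labelled uninduced 2 members (NFKB1 and NFKBIA) had an unadjusted limma p under 0.05, against 2673 of all tested genes (19.4%). Within those labelled induced 3 members did (NFKBIA, NFKBIE and NFKBIZ), against 1128 of all tested genes (8.18%). NFKBIZ differed by -0.39 ± 0.09 (SE, B_4 minus B_1), with an unadjusted limma p of 0.0019 and an adjusted p of 0.228, and with both B_4 arrays below both B_1 arrays under each label. NFKBIA differed by -0.29 ± 0.09 (unadjusted p = 0.0067, adjusted p = 0.245) and showed the same order. The other 8 members differed by between -0.12 and 0.11, with adjusted p of 0.552 or more. For the last number 0 of 13796 genes passed as well (971 with an unadjusted p under 0.05), and the members differed by between -0.09 and 0.09.

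Within B_1, NFKBIZ, BCL3 and NFKB2 passed, where 48.7% of all tested genes did. Within B_4 these 3 passed together with NFKB1, where 46.3% of tested genes did. NFKBIZ differed by 3.88 in B_1 and 3.58 in B_4, BCL3 by 0.96 and 0.79, and NFKB2 by -0.44 and -0.68. NFKB1 differed by 0.00 in B_1 and by 0.32 in B_4 (limma adjusted p = 0.0358). RELA and NFKBIA, with 2 arrays per label left, passed in neither code (RELA 0.23 and 0.24, NFKBIA -0.28 and -0.26).

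The test of the difference between codes called none of the 10 members, and 41 of all tested genes (0.297%; 1638 genes had an unadjusted p under 0.05). NFKB1 and NFKBIE came nearest, with unadjusted p of 0.0703 and 0.069961 and an adjusted p of 0.463 each. The arrays of one code and number differed by 0.13 and 0.10 for NFKBIE in B_1 and by -0.32 and -0.10 in B_4, and the signs of NFKBIB also went apart by code (-0.00018 and -0.06 against 0.02 and 0.14). For RELB the difference was -0.06 in B_1 and -0.23 in B_4 (interaction adjusted p = 0.776), and it passed in neither code.

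**Figure D2:**
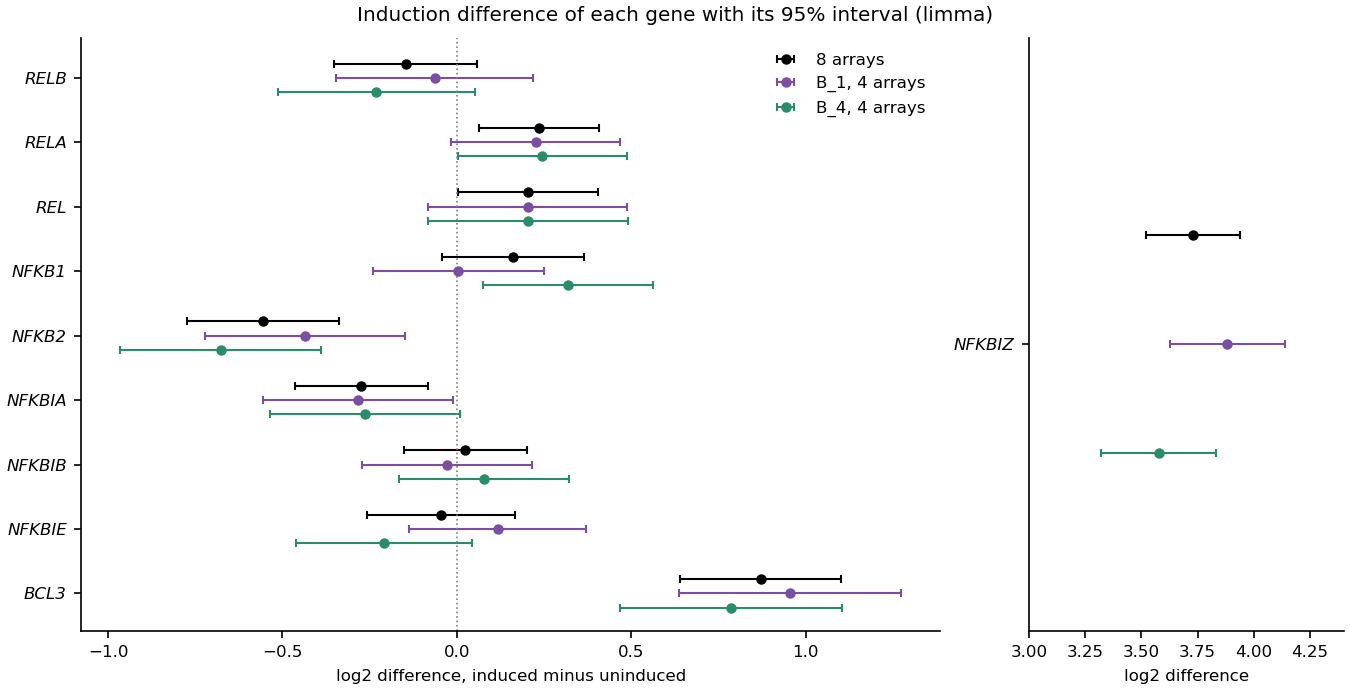
Log2 difference between arrays labelled induced and uninduced for each gene, over all 8 arrays and within each B code. Bars are 95% intervals from limma, with a spread taken from all 8 arrays. NFKBIZ has its own axis, which does not start at 0, and the gap between codes is -0.33 for NFKBIE and 0.31 for NFKB1, neither of which passed.

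The exon-level probe sets gave the same genes in finer parts. Of the 141 probe sets, 139 passed the filter on dim signals, and 28 of these rose and 15 fell by limma, against 17.9% and 17.5% of all 168240 tested probe sets (35.4% in either direction). The groups did not overlap for 48 of the 139, against 36.6% of all. NFKBIZ held 17 of the 28 that rose, BCL3 8, RELA 2 and NFKBIE 1. NFKB2 held 14 of the 15 that fell and NFKBIA the other. For 5 of the 28 (4 of NFKBIZ and 1 of NFKBIE) the mean of the arrays labelled uninduced lay under the filter level of 4.77. They passed the filter through the arrays labelled induced alone, so their differences are given as values without a test. Over the 134 member probe sets at that level under both labels, a setting added after the data were seen, 23 rose and 15 fell, against 17.3% and 15.2% of all 154722. The files give no positions within the genes, so probe sets are given in the order of their identifiers, and whether that order follows the transcript was not tested.

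RELB had 11 exon-level probe sets, and 0 passed limma (1 had an unadjusted p under 0.05). The first 4 in identifier order lay above 0 (0.31, 0.16, 0.29 and 0.26) and the other 7 below 0, from -0.58 to -0.18. The highest, probe set 8029581, gave 6.50, 6.16, 6.18 and 6.70 in the uninduced arrays and 6.21, 6.84, 6.86 and 6.87 in the induced arrays. The lowest, 8029587, gave 7.65, 8.11, 8.22 and 7.88 in the uninduced arrays and 7.28, 7.75, 7.34 and 7.16 in the induced arrays, which overlap only through the induced array of replicate 2. Its adjusted p was 0.0677, and it passed without the uninduced array of replicate 1 (0.0494) or the induced array of replicate 2 (0.0455). Whether the RELB probe sets moved unequally was tested with the limma F test for exon usage, which did not pass (adjusted p = 0.155). Groups did not overlap for 2 of the probe sets, 8029584 (higher by 0.26) and 8029589 (lower by 0.32), which were picked after their values were seen.

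In exon usage, a probe set's difference is set against that of the other probe sets of its gene. The F test called 4 of 10 members (NFKBIZ, NFKB2, NFKBIE and BCL3), where it called 41% of all 14639 genes with 3 or more probe sets. That test takes the spread of all probe sets of a gene as equal, and on simulated data it made many false calls. A second test gave each probe set its own spread, and called the same 4 members, where it called 24.7% of all genes. The second test's adjusted p (Simes over a gene's probe sets) were 0.000349 for NFKBIZ, 0.0146 for NFKBIE, 0.0201 for NFKB2 and 0.0219 for BCL3. The other members' adjusted p in that test were 0.342 or more. With probe sets at the filter level under both labels alone, each test called NFKBIZ, NFKB2 and BCL3 (0.000594, 0.0221 and 0.0241 in the second), but not NFKBIE (0.196 and 0.227). Among single probe sets the first test called 12.3% of 163892 and the second 9.34%.

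NFKBIZ had 18 probe sets, all above 0, with a median difference of 3.89 on the log2 scale. The widest measured above the filter level under both labels was 8081390, the fourth, which went from 6.33, 6.30, 5.77 and 5.05 in the uninduced arrays to 10.65, 10.80, 10.0007 and 10.08 in the induced arrays (difference 4.52 ± 0.19, limma adjusted p = 5.37e-06). Probe set 8081391, the fifth, went from 4.47, 4.49, 4.88 and 4.69, under that level on average, to 9.72, 10.26, 9.72 and 9.24. The second, 8081388, stood apart from the rest. Its arrays labelled uninduced gave 8.15, 7.79, 8.23 and 7.96 and those labelled induced 7.79, 8.16, 8.20 and 8.45. Its difference of 0.12 ± 0.18 did not pass (limma adjusted p = 0.664). Against the other NFKBIZ probe sets, the dim ones included, it stood at -3.45. Against those at the filter level under both labels it stood at -3.36 (adjusted p = 0.000559 in the limma test with own spreads). With dim ones included, 0.683% of all probe sets stood apart from their gene by 3 log2 units or more.

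Probe set 8081389, next in order, also differed less than the gene's median, at 5.27, 5.92, 5.58 and 5.48 in the uninduced arrays and 6.92, 5.71, 6.87 and 6.66 in the induced arrays. Its groups overlapped through the induced array of replicate 2. The difference of 0.98 ± 0.30 passed (limma adjusted p = 0.0393), but the call was lost without either array of replicate 1, 3 or 4, each left out alone, with adjusted p from 0.0962 to 0.116. Probe set 8081403, the seventeenth, was under the filter level in the arrays labelled uninduced, at 3.63, 4.09, 3.55 and 3.99, and gave 5.71, 5.99, 5.59 and 5.67 in those labelled induced. The means of 8081402 and 8081404 likewise went from 4.19 and 4.44 to 8.43 and 8.68. Among the probe sets at that level under both labels, the test with own spreads called 8081388, 8081389, 8081390 (4.52), 8081398 (4.43) and 8081394, the last named after its value was seen. Probe set 8081397 (2.62) was called against the gene's other probe sets only with the dim ones included.

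**Figure D3:**
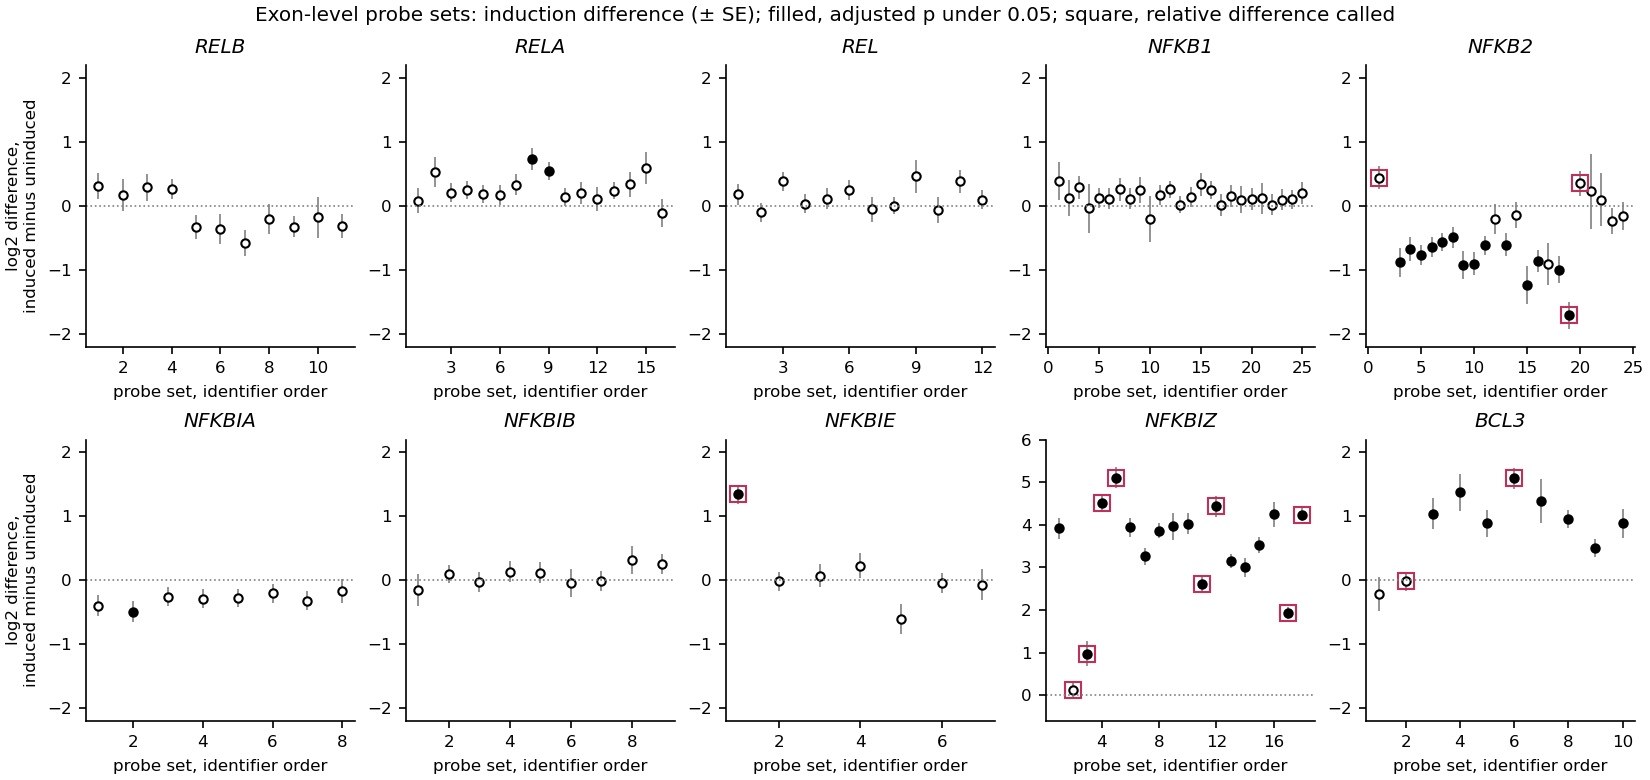
Log2 difference (± SE) of every tested exon-level probe set, in identifier order within each gene. Filled points passed limma at an adjusted p under 0.05 and squares passed the usage test with own spreads; the NFKBIZ panel has a wider axis, and its probe sets 2 and 3 lie at 0.12 and 0.98 under a median of 3.89. For 5 points (NFKBIZ 8081391, 8081402, 8081403 and 8081404 and NFKBIE 8126667) the uninduced mean lies under the filter level.

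NFKB2 had 24 exon-level probe sets, of which 23 were tested, 19 lay below 0 and 14 fell. Probe set 7930093 fell most, from 10.89, 10.76, 10.82 and 10.73 in the uninduced arrays to 9.58, 9.02, 8.60 and 9.17 in the induced arrays (-1.71 ± 0.21, limma adjusted p = 0.000848). It stood at -1.22 against the gene's other probe sets (adjusted p = 0.00493 with own spreads). The probe set next in order, 7930094, gave 9.47, 9.65, 9.27 and 9.16 in the uninduced arrays and 10.15, 9.60, 9.37 and 9.85 in the induced arrays, so it overlapped and did not pass (0.36 ± 0.19). It was called against the other probe sets (adjusted p = 0.0189). The first, 7930075, had 6.99, 7.34, 7.17 and 7.99 and then 7.12, 7.97, 8.06 and 8.11 (0.44 ± 0.18, adjusted p = 0.104), and was called as well, but not over probe sets at the filter level under both labels (0.0615). Between these 2 probe sets in order, 15 of 17 tested probe sets had differences of -0.49 or below, and the last 5 of the gene ranged from -0.24 to 0.36. Probe set 7930095 (0.23 ± 0.59) was called by the first test and not by the second, and its sign turned without the uninduced array of replicate 3 (-0.37) or the induced array of replicate 1 (-0.23). The untested 7930076 was dim, at 3.82, 3.26, 3.06 and 4.26 in the uninduced arrays and 5.54, 5.83, 5.10 and 5.09 in the induced arrays.

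BCL3 had 10 exon-level probe sets, and 8 rose, by 0.50 to 1.59. The widest was 8029471, at 7.02, 6.92, 7.18 and 6.84 in the uninduced arrays and 8.69, 8.56, 8.31 and 8.75 in the induced arrays (1.59 ± 0.17, limma adjusted p = 0.000437). The first 2 in order, 8029466 and 8029467, did not pass, with differences of -0.22 ± 0.26 and -0.02 ± 0.15. Probe set 8029467 was level in all 8 arrays, at 7.11, 6.98, 7.23 and 7.14 and then 6.88, 7.17, 7.21 and 7.12. It was called against the gene's other probe sets by both tests (-0.94, adjusted p = 0.0115 with own spreads). Probe set 8029466 was called by the first test alone.

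**Figure D4:**
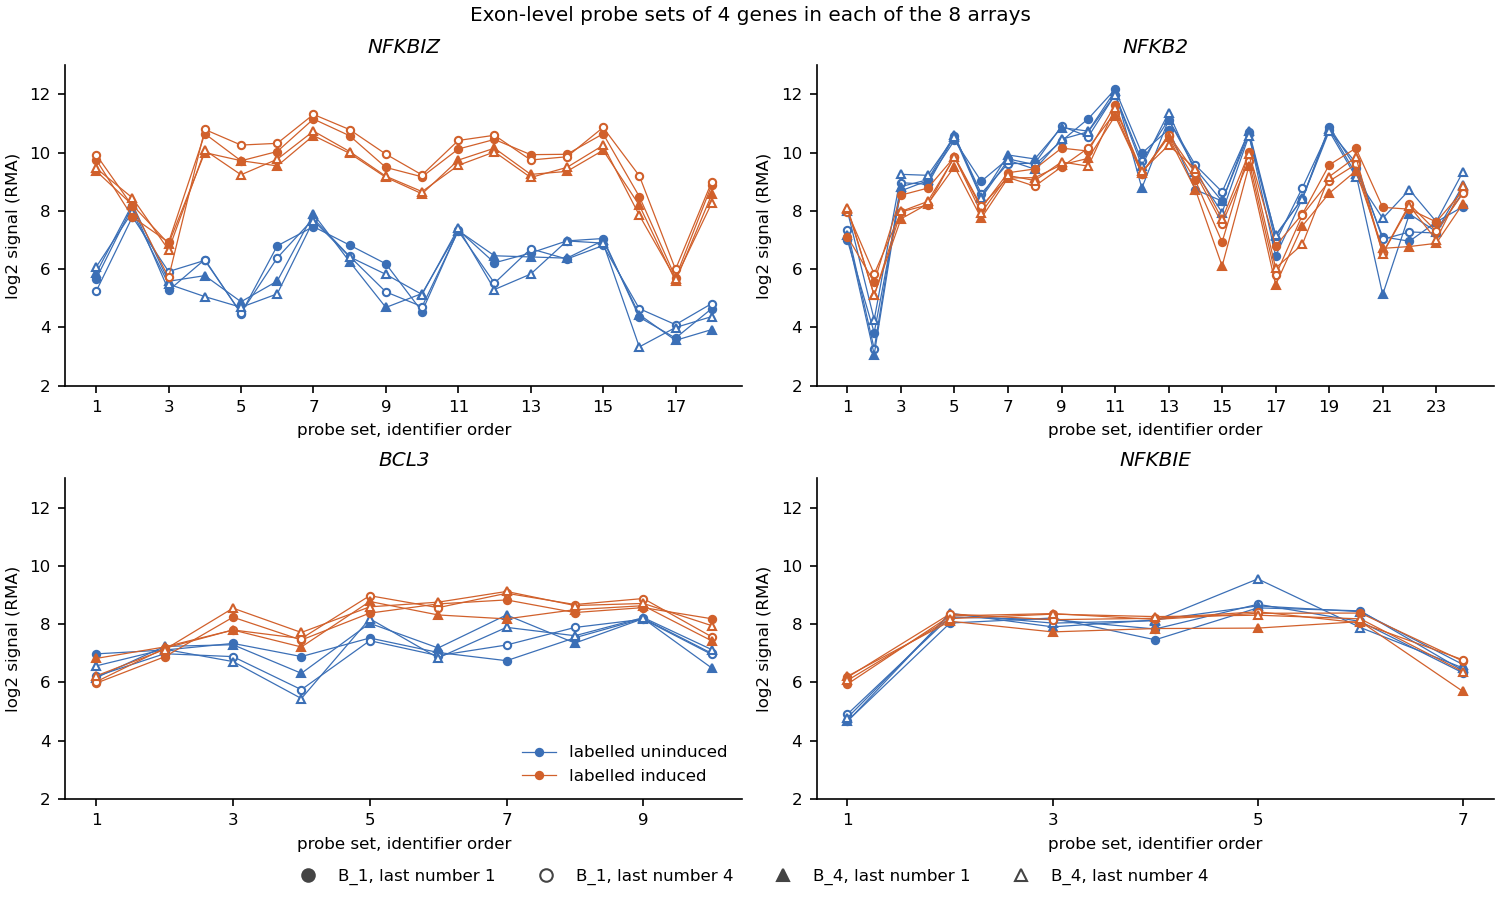
Log2 signal of every exon-level probe set of NFKBIZ, NFKB2, BCL3 and NFKBIE in each of the 8 arrays, in identifier order; colour gives the induction label, shape the B code and fill the last number. Lines join the probe sets of 1 array, levels of different probe sets cannot be compared, and the labels meet at the second NFKBIZ probe set.

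NFKBIE did not pass at gene level. Of its 7 exon-level probe sets, 8126667, the first in order, gave 4.67, 4.91, 4.66 and 4.79 in the uninduced arrays and 5.94, 6.17, 6.21 and 6.07 in the induced arrays. The groups were more than 1 log2 unit apart, but the mean of the uninduced arrays (4.76) lay just under the filter level, and the usage call of NFKBIE rests on this probe set. Probe set 8126671 went the other way, from 8.56, 8.68, 8.62 and 9.55 to 8.37, 8.42, 7.86 and 8.30 (-0.61 ± 0.24, adjusted p = 0.0850). Its groups did not overlap, and the uninduced array of replicate 4 was the high one. The mean over the NFKBIE probe sets was 0.13 higher in the arrays labelled induced, against -0.05 at gene level.

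Neither usage test called the remaining members. NFKBIA had all 8 probe sets below 0, from -0.49 to -0.17, and 1 of them, 7978646, passed (11.62, 11.96, 11.63 and 11.50 against 11.43, 11.21, 10.94 and 11.17, limma adjusted p = 0.0482). That call was lost without any 1 of the 8 arrays, with adjusted p from 0.0568 to 0.142. RELA had 15 of 16 above 0. Probe set 7949473 (9.18, 8.88, 8.77 and 8.79 against 9.65, 9.63, 9.39 and 9.90) rose by 0.73 ± 0.18, and lost its call without the uninduced array of replicate 2, 3 or 4 (adjusted p 0.0535 to 0.0568). The next in order, 7949474, rose by 0.55 ± 0.14 and was named after its value was seen. REL had 9 of 12 above 0 (-0.10 to 0.47), NFKB1 23 of 25 (-0.21 to 0.39) and NFKBIB 5 of 9 tested (-0.16 to 0.31), and none of these passed limma (unadjusted p under 0.05 for 1, 0 and 0 of them).

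The genes whose profiles over the 8 arrays lay nearest to those of the members with differences of 0.5 or more were found by the root mean square difference of mean-centred log2 values. For NFKB2 they were TNFRSF14 (0.03) and DMXL1 (0.05), for BCL3 PIDD1 (0.05) and SYVN1 (0.05), and for NFKBIZ HLA-DQA1 (0.15) and HIVEP2 (0.20). HIVEP2, which encodes a zinc finger protein, went from a mean of 4.35, under the filter level, to 8.10, and HLA-DQA1, a class II chain with near-identical relatives that its probes may share, differed by 3.71. This likeness describes 8 arrays that share the label difference.

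Other genes of the pathway moved in both directions, and the lists are described by counts only. Of all tested genes 27.1% rose and 28.4% fell, which is the background for each count. Among 10 tested IKK subunits and upstream kinases 6 rose and 3 fell. IKBKE, an IKK-related kinase, rose by 2.51, IKBKB, the catalytic IKK-beta, by 1.20, and TAB3, an adaptor of the kinase TAK1, fell by 1.26. CHUK, the IKK-alpha that drives p100 processing, rose by 0.77, and MAP3K14, the NIK kinase upstream of it, fell by 0.41, both named after their values were seen. Of 7 TRAF and IAP adaptors 2 rose (TRAF1, 2.70, and TRAF3, 1.83, the adaptor that keeps NIK low) and 3 fell, led by TRAF6 (-1.62), the adaptor of interleukin-1 and Toll-like receptors. Median differences of the lists were 0.33 and 0.04, against 0.02 for all tested genes.

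Of 6 deubiquitinases and A20-binding inhibitors 2 rose and 2 fell. TNFAIP3, which encodes the feedback inhibitor A20, rose by 2.34, and the deubiquitinase CYLD fell by 2.13. USP21, another deubiquitinase, rose by 0.54. Of 6 parts of the ubiquitin ligase that acts on IkB and p100, 1 rose and 3 fell. SKP1 was at -0.75, BTRC, a subunit that recognises phosphorylated IkB, at -0.74, and FBXW7 at -0.56. The gene that rose was FBXW11 (0.50), named after its value was seen. Of 4 further genes, for proteins that resemble or bind IkB, 0 rose and 3 fell by limma. NKIRAS1 (-0.72) and NKIRAS2 (-0.59) encode small GTPases that bind IkB and are not IkB proteins. NFKBIL1, named for its likeness to IkB, was at -0.26 (adjusted p = 0.0499955), while NFKBID, a nuclear IkB like NFKBIZ and BCL3, was at 0.06 and did not pass (named outside the rule).

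Receptors that feed NF-kB gave 5 rises and 3 falls among 11 tested. TNFRSF8 rose by 4.70, and TNFRSF11A (RANK), a receptor of the alternative pathway, fell by 5.13. IL1R1, the interleukin-1 receptor, went from a mean of 8.61 to 3.66, which is under the filter level of 4.78. Without IL1R1 5 of 10 rose and 2 fell. Of 23 tested classical target genes 6 rose and 13 fell, with a median of -1.50, against 27.1% and 28.4% of all tested genes. This list holds none of the 10 members, of which 3 rose and 2 fell. It also leaves out TNFAIP3 (2.34) and TRAF1 (2.70), which were counted in other lists. Lymphotoxin LTA was at -4.67. SLAMF1, a lymphocyte receptor, and the cytokine IL6 went from 9.04 and 8.71 to 3.61 and 3.91, under the filter level. Without these 2 genes 6 of 21 rose and 11 fell, with a median of -0.64. Of 8 tested targets of the alternative pathway 2 rose and 3 fell, with a median of 0.11. IL10 rose by 3.44, from an uninduced mean of 4.79 (arrays from 4.41 to 5.15) that lay just above the filter level of 4.78. CR2, a complement receptor, went from 3.15 to 7.59, and the adhesion molecule VCAM1 from 7.53 to 4.12, each with 1 label under the filter level. Without them 1 of 6 rose (IL10) and 2 fell. The lists were drawn up with earlier results of these data known, so their counts are not independent evidence, and markers of B cells and Hodgkin cells moved beside them, as given above.

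**Figure D5:**
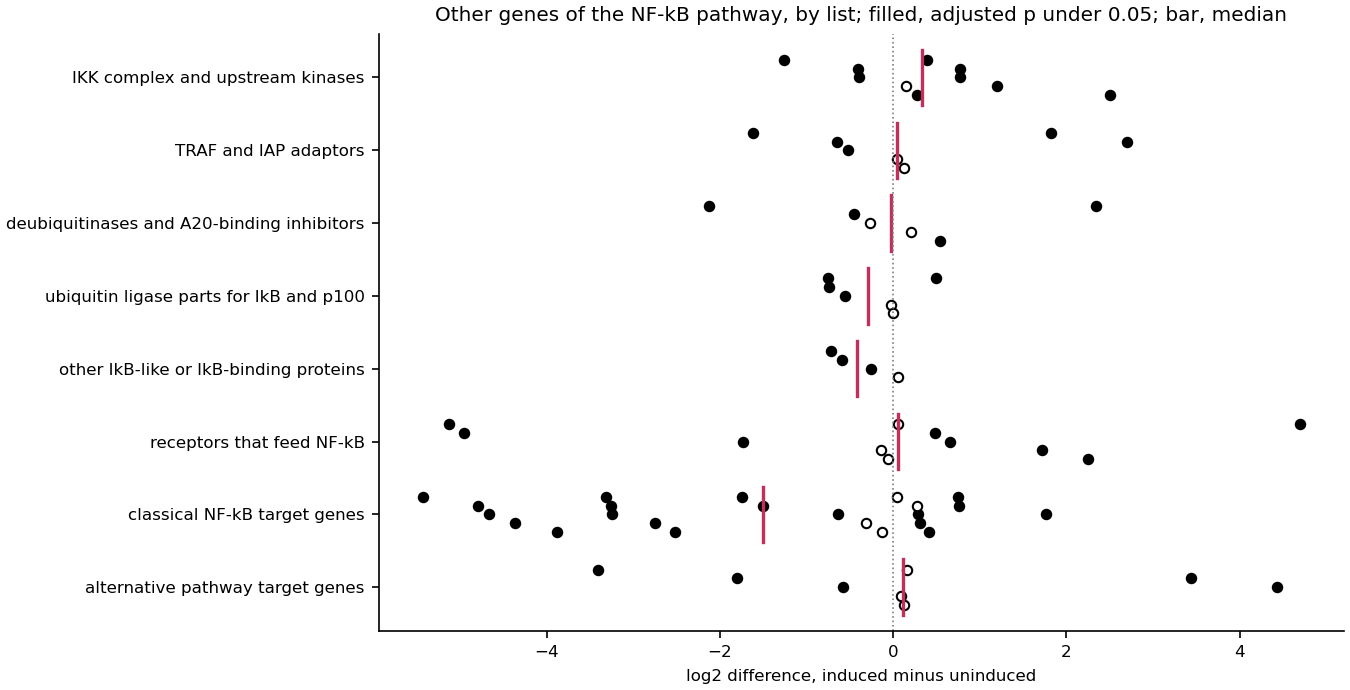
Log2 difference between arrays labelled induced and uninduced for the tested genes of 8 pathway lists; filled points passed limma at an adjusted p under 0.05, open points did not, and the vertical bar is the list's median. The classical targets have the lowest median, -1.50, and the other lists have medians between -0.42 and 0.33; 5 points (IL1R1, IL6, SLAMF1, CR2 and VCAM1) have 1 label under the filter level.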

How the data were processed

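Total RNA was extracted with TRIZOL, labelled as sense-strand cDNA and hybridised, per the labels' protocols. The authors deposited log2 signals. Partek and RMA appear in the submitters' processing notes without versions, and log base 2 is inferred from what RMA gives and from a range of 2.07 to 14.1. RMA equalises the arrays' distributions, so a shift common to all genes would be removed and dim signals are compressed. Annotation version, build and filters: not given in the sources used here. Gene and exon summaries were 2 readings of the same 8 arrays (4428 of 4428 shared features had equal values at tolerance 0), never further replicates.

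Probe sets were named through the platform annotation, updated to RefSeq (GRCh38.p14). A gene was represented by its probe set of highest mean, and the lowest 25% of genes by mean were not tested. Limma 3.58.1 in R 4.3.3 fitted induction label, B code and last number (4 residual and 6.27 prior degrees of freedom). P-values were adjusted by Benjamini-Hochberg over every tested gene or probe set, with a threshold of 0.05. Every adjusted p comes from limma p-values. For the gene call of the second usage test, those of a gene's probe sets were first combined by the Simes method. The interaction with B code had its own fit. Exon usage was tested with diffSplice and with each probe set relative to the mean of its gene's other probe sets, a test chosen after the first gave false calls on simulated data. The gene-level tests of induction label, B code and interaction and both usage tests were tried on simulated data. Same-numbered arrays did not deviate together in all pairs (correlations of deviations 0.16, -0.02, 0.11 and 0.02), so the numbers were not taken as pairs.

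The members, lists and tests were chosen with earlier results of these data known. Named were all members, for each the exon-level probe sets with the lowest and highest difference and those called by the probe set test of diffSplice, and in each list the 3 widest differences that passed. Exceptions are marked, and 1 list is not reported here. Alternatives were the covariates, the pair as a block, normalisation, filter, probe set choice, variance model, threshold, each array left out and, added after the data were seen, the filter level reached under both labels. Plots used matplotlib 3.10.9 (Python 3.11.15).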

Additional observations from a re-analysis of the deposited data

Results flagged for a closer look

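In 80 groups of 4 arrays (the 10 genes and the named exon-level probe sets, under each label), 5 had 1 array far from the other 3 by Dixon's ratio; chance gives about 1 in 20. RELB probe set 8029581 was 6.21 in the induced array of replicate 1, against 6.84 to 6.87 in the other 3. The same array gave 7.12 for NFKB2 probe set 7930075, against 7.97 to 8.11. It was the highest for NFKB2 probe set 7930095, at 8.12 against 6.53 to 6.71. NFKBIB probe set 8028560 was 6.47 in the induced array of replicate 4, against 7.47 to 7.55. NFKBIE probe set 8126671 was 9.55 in the uninduced array of replicate 4, against 8.56 to 8.68. None of the 10 genes had such an array at gene level.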

How the results depend on the processing

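NFKBIZ, BCL3 and NFKB2 kept their direction and their call in all 20 other settings of the gene-level test, from 3.38 to 3.78, 0.81 to 0.97 and -0.65 to -0.44. These settings include the main fit itself, read at a threshold of 0.1. RELB kept its direction and passed in none of them (adjusted p 0.0921 to 0.539). RELA passed in 15 and NFKBIA in 14 of the 20. REL passed with a variance trend and robust fitting (adjusted p = 0.0475) and at the looser threshold of 0.1 (0.0792). The count of members that fell was 1 with no covariates and with the pair as a random replicate block, and NFKBIA then had an adjusted p of 0.0707 and 0.0510. The cause was not tested. With the pair as a fixed replicate block 3 members rose and 2 fell, as without it, and at exon level RELB probe set 8029587 gained a call (0.0467) while NFKBIA probe set 7978646 (0.0817) and NFKBIZ probe set 8081389 (0.0607) lost theirs; these 2 also lost it with no filter (0.0707 and 0.0532). Signs turned for NFKBIB with quantile normalisation (-0.029), for NFKBIE as the mean of exon-level probe sets (0.13) and for BCL3 probe set 8029467 with quantile normalisation (0.013). The interaction with B code was called for 174 genes with a variance trend and robust fitting. Exon usage was called for 3617 genes by the test with own spreads, against 6009, and for 2858 when probe sets also had to reach the filter level under both labels, which leaves fewer to test.

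With each array left out in turn, the count of members that fell ran from 1 to 2, that of genes called between B codes from 0 to 65 (65 without the induced array of replicate 4), and that of interactions from 3 to 33. NFKBIB then ran from -0.012 to 0.053 and NFKBIE from -0.10 to 0.033. Among probe sets whose sign turned, BCL3 8029466 ran from -0.47 to 0.011 and 8029467 from -0.092 to 0.056, NFKB2 7930095 from -0.37 to 0.84, RELA 7949481 from -0.22 to 0.088, NFKB1 8096645 from -0.60 to 0.14 and NFKBIB 8028553 from -0.32 to 0.037. The number of arrays limits all of these, and signals near the filter level are close to array background.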
